A study of Mus musculus with 8 samples.

Results

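Pro-B and large pre-B cells are B-lineage precursors that carry the surrogate light chain, and 1430 of 31952 kept cells (4.48%) in 4 single-cell RNA libraries met the rule for them. Cells were kept with at least 1000 genes, at least 2000 unique molecular identifiers (UMIs, the counted RNA molecules) and at most 10% mitochondrial UMIs. A kept cell was a member if it held at least 1 UMI of Vpreb1, at least 1 of Igll1 and at least 1 of Ebf1 or Cd79a, and no UMI of Mpo, Klf1 or Mcpt8, which mark myeloid, erythroid and basophil cells. At postnatal day 2 (P2) there were 644 members of 6550 kept cells in bone marrow, 511 of 5634 in liver and 147 of 9043 in spleen. At embryonic day 19 (E19) there were 128 of 10725. Below, the other kept cells are those that failed the rule even with the Mpo, Klf1 and Mcpt8 condition dropped, unless stated otherwise.

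All 4 libraries came from wild-type mice. Cells were enriched with c-Kit beads and gated as Epcr+Lin-Sca-1+Kit+, a gate meant for hematopoietic stem cells. The 3 P2 libraries (batch 1) are each titled as 7 merged samples of P2 mice. The titles do not say whether the tissues came from the same animals. The E19 library (batch 2) is called bone marrow in its title and fetal liver in its tissue label, and its number of animals is not given in the labels. Stage, batch and tissue cannot be told apart for E19, and it is called E19 here. Each group was 1 library, so no difference was tested, and the 95% intervals below cover counting error only. A pair of further tubes from Tppp3CreER LSLTdTomato pups given tamoxifen at P0 held 1 and 13 members and entered no comparison.

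B cells are built stepwise. Pro-B cells rearrange the immunoglobulin heavy chain gene with the Rag recombinase, and the template-independent polymerase terminal deoxynucleotidyl transferase, encoded by Dntt, adds bases at the joins. A finished heavy chain pairs with the surrogate light chain, made of the Vpreb and Igll1 proteins, to form the pre-B cell receptor, which drives large pre-B cells to divide before they become small pre-B cells and rearrange a light chain gene. Fetal liver, then bone marrow, hosts these steps, with interleukin 7 as a growth factor.

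Of the genes that chose the cells, Vpreb1 and Igll1 sit close together. Vpreb1 lies at chr16:16868403-16870843 on the minus strand and Igll1 at chr16:16860671-16863985 on the minus strand (GRCm38, GENCODE vM21), while Dntt lies at chr19:41029275-41059525 on the plus strand. The 250 bases before the RefSeq start of each (GRCm38.p6) are shown because Vpreb1 and Igll1 define the cells and Dntt because it was found in the members of each P2 tissue and in none at E19. Capitals mark CAGGTG or its reverse complement CACCTG, an E-box of the kind that the B-lineage factor E2A (Tcf3) is known to bind.
Vpreb1, chr16:16869256-16869505, minus strand: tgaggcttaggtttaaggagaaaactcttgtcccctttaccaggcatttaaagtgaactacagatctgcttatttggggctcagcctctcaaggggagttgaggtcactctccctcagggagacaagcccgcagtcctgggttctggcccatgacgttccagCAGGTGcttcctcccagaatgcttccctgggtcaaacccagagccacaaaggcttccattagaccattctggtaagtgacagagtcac
Igll1, chr16:16863986-16864235, minus strand: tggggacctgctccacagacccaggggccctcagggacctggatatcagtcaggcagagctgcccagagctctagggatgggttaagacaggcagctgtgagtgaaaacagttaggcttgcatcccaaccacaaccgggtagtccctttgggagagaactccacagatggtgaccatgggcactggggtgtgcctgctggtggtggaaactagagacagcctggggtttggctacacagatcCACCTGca
Dntt, chr19:41029025-41029274, plus strand: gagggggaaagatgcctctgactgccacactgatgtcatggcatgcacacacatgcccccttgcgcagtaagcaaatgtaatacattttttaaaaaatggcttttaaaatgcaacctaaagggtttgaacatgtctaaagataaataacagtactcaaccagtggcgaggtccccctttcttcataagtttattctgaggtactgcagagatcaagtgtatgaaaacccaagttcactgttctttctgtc
The motif lay 88 bases before the start of Vpreb1 and 8 bases before that of Igll1, and these letters are not in the Dntt window. The Vpreb1 window overlaps an exon of a longer non-coding GENCODE transcript. Over all RefSeq promoter windows of this length, 5657 of 32851 (17.2%) held the motif on either strand. Among the 20 genes that led the members over the other kept cells, 18 had a window and 11 of these held the motif in any of their windows. This counts genes and the share above counts windows, so they differ in unit. Vpreb1 and Vpreb2, both among the 11, have windows that share a run of 91 identical bases. This is a description of letters, and the leading genes were chosen on these cells.

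Members were about as frequent in P2 bone marrow and liver and far rarer in the other libraries. Their share of kept cells was 9.83% (9.12 to 10.6) in P2 bone marrow, 9.07% (8.33 to 9.85) in liver, 1.63% (1.38 to 1.91) in spleen and 1.19% (0.997 to 1.42) at E19. The bone marrow share was 6.05 times that of spleen, and the liver share was 5.58 times that of spleen. Among the 5007, 3967, 6155 and 8090 kept cells of at least 5000 UMIs, each was thinned to 5000 before the rule. The shares were then 7.03%, 6.76%, 1.27% and 1.06%, in the same order. Shallower cells, among them 298, 252, 67 and 38 members, were left out of these shares. The sort selects on surface proteins, and its part in these shares was not tested.

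**Figure D1:**
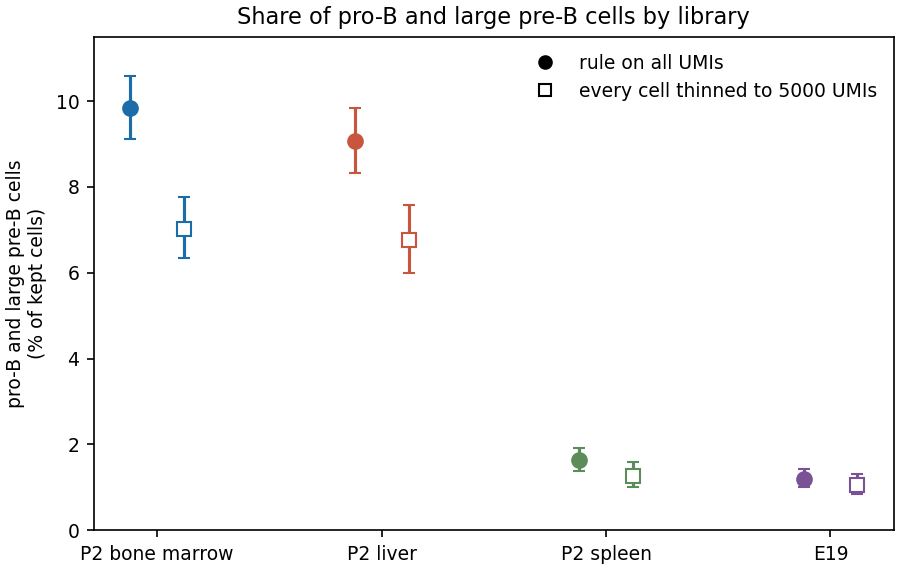
Share of kept cells that met the rule, in percent on the vertical axis, for each library, with all UMIs (filled circles). Open squares show the share among cells of at least 5000 UMIs, each thinned to 5000, with shallower cells left out. Bars are exact 95% binomial intervals; bone marrow and liver lie between 6.76% and 9.83% and the other libraries between 1.06% and 1.63%.

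The condition on Mpo, Klf1 and Mcpt8 mattered most for the liver share. It left out 195 cells in bone marrow, 343 in liver, 36 in spleen and 14 at E19 that met the rest of the rule, and without it the liver share was 15.2% and the bone marrow share 12.8%. Of the cells left out, 114, 106, 16 and 11 held a single UMI of the 3 genes together. In liver those 106 cells had Pax5 at 712 CPM (UMIs scaled to the total of the cells) and Vpreb3 at 1673, close to the 754 and 1739 of the members. All 343 liver cells left out had Pax5 at 226, Vpreb3 at 722 and Mpo at 1414 CPM, and a median mitochondrial share of 8.13% against 2.44% in the liver members. At the inner edge, 10, 9, 6 and 0 members held exactly 1 UMI each of Vpreb1 and Igll1. At the outer edge, 38, 34, 24 and 7 cells held Vpreb1 with Ebf1 or Cd79a but no Igll1, and their Ly6d level was 645, 814, 604 and 343 CPM, against 156, 135, 81.8 and 50.3 in members. No kept cell held Vpreb1 and Igll1 without Ebf1 or Cd79a under the same exclusions.

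Members were shallower than the average kept cell at P2. Their median UMI count was 5276.5 in bone marrow, 5142 in liver, 5410 in spleen and 7887 at E19, against 8275, 8172, 7438 and 6523 over all kept cells. Scrublet, which scores barcodes that look like 2 cells, marked 42, 36, 17 and 17 members (6.52%, 7.05%, 11.6% and 13.3%), against 7.68%, 5.66%, 8.68% and 9.44% of kept cells. The marked members were kept in the values below, and several levels that moved without them are given both ways. One member barcode was shared, between liver and E19, and none between the other pairs.

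Pax5, which fixes cells to the B lineage, is the only marker of the label that the rule did not use, and it was present in nearly all members. A level here is the gene's UMIs summed over the members of a library and scaled to all their UMIs (CPM). Pax5 stood at 565 (542 to 589) in bone marrow, 754 (725 to 784) in liver, 544 (497 to 593) in spleen and 656 (611 to 704) at E19. Among members of at least 5000 UMIs, thinned to 5000, 85.8%, 91.1%, 92.5% and 93.3% held a Pax5 UMI. Among all members before thinning the shares were 90.1%, 90.8%, 89.8% and 94.5%, so the sets of cells differ. In cells with at least 5 Mpo UMIs, which should lack Pax5, the thinned share was 0.389%, 1.94%, 2.21% and 0%, at median depths of 14678, 19629.5, 15138.5 and 12262.5 UMIs. The 0% came from 0 of 218 cells, which allows a share of up to 1.68% by the exact interval. Pax5 was thus present in the members of each library, as the label calls for.

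The surrogate light chain genes chose the cells, so their levels are a description. Vpreb1, which encodes the surrogate variable part, stood at 1472 CPM in bone marrow, 1522 in liver, 850 in spleen and 923 at E19. Igll1, which encodes lambda 5, the surrogate constant part, stood at 1003, 989, 648 and 745. Both were highest in bone marrow and liver and lowest in spleen.

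Vpreb2 and Vpreb3 were not used by the rule and followed a like order. Vpreb2, a near copy of Vpreb1, stood at 248 (232 to 264), 288 (270 to 307), 130 (108 to 156) and 178 (155 to 203). Its level is uncertain, since the reference transcripts of Vpreb1 and Vpreb2 share a run of 196 identical bases and 50.5% of the 31-base words of Vpreb2 occur in Vpreb1. Vpreb3, which assists assembly of the receptor, stood at 1628 (1588 to 1668), 1739 (1694 to 1784), 1277 (1205 to 1352) and 1224 (1162 to 1289). Bone marrow and liver lay above spleen and E19 for both genes with no overlap of the counting intervals, but the only surrogate light chain ratio past 2-fold was that of Vpreb2 in liver over spleen (log2 1.13, 0.87 to 1.43), which was 0.85 without the condition on Mpo, Klf1 and Mcpt8. The threshold for naming a difference was 2-fold with at least 50 UMIs in all and 50 CPM in the higher library, and 1.70% of 3874 genes were higher in liver than in spleen by it, 0.310% lower and 2.01% either.

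**Figure D2:**
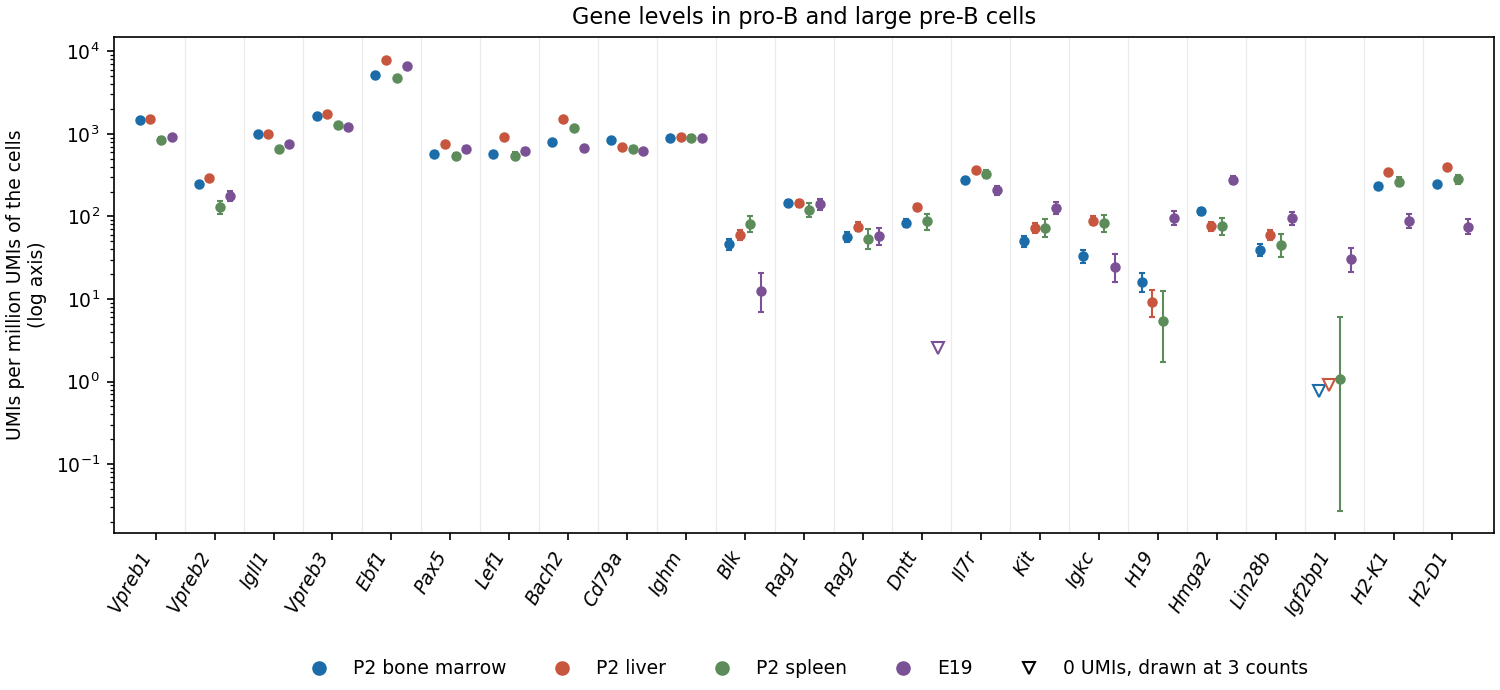
Levels of 23 genes in the members of each library, in CPM on a log axis, with exact 95% Poisson intervals; open triangles mark 0 UMIs, drawn at the level of 3 counts. The Ighm and Rag1 points lie close together across libraries, while Vpreb2 is lowest in spleen and Blk is lowest at E19. Dntt is at 0 at E19, and H19, Hmga2 and Igf2bp1 are highest there.

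The transcription factors of the B lineage were high in every library and leaned toward liver. Ebf1, the pioneer factor of the lineage and part of the rule, was the most abundant at 5163, 7891, 4748 and 6680 CPM. Bach2, a repressor that acts at the pre-B receptor checkpoint, stood at 802 (775 to 831) in bone marrow, 1527 (1485 to 1570) in liver, 1180 (1111 to 1252) in spleen and 666 (621 to 714) at E19. Lef1, a Wnt pathway factor of pro-B cells, stood at 568 (545 to 592), 911 (879 to 944), 546 (499 to 596) and 618 (575 to 665). Foxo1, which switches on the Rag genes and Il7r, stood at 257 (241 to 273), 318 (300 to 338), 150 (126 to 177) and 275 (246 to 306). Liver had the highest value of all 4 genes. Among members called G2M, described below, Foxo1 stood at 260, 256, 133 and 254 in bone marrow, liver, spleen and E19. Ebf1, Bach2 and Lef1 were still highest in liver in that class. Of the 20 factors in the list, 19 passed the size filter between bone marrow and liver, none was 2-fold higher in bone marrow and 2 were lower, with a median log2 ratio of -0.42 beside -0.03 over all 3884 genes, of which 0.206% were higher, 0.721% lower and 0.927% either. Those 2 were Ikzf3 and Irf4, factors of later stages: Ikzf3 stood at 17.5 (13.6 to 22.1) in bone marrow, 50.6 (43.2 to 58.9) in liver, 71.1 (55.0 to 90.4) in spleen and 3.35 (0.913 to 8.58) at E19. The Irf4 ratio (-1.03) was under 2-fold in 3 alternatives, at -0.92 with 3 UMIs of each rule gene, -0.71 without the condition and -0.99 without globin, histone, ribosomal and mitochondrial genes. Between liver and spleen the median was 0.47 beside 0.07 over all genes, with Foxo1 the 1 factor of 19 past 2-fold (log2 1.08, 0.83 to 1.36). The Foxo1 ratio was under 2-fold in 3 alternatives, at 0.91 without the members marked by Scrublet, 0.72 without the condition on Mpo, Klf1 and Mcpt8, and 0.99 without globin, histone, ribosomal and mitochondrial genes.

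At E19 few factors and receptor genes that passed the size filter were past 2-fold from the sum of the P2 tissues. Of the B-lineage factors, 18 of 20 passed the filter against the sum of the 3 P2 tissues. None of these passed 2-fold in either direction (median log2 ratio -0.12 beside 0.00 over all 3947 genes). Ikzf3 was not among these 18, because it did not pass the filter in this comparison. Its E19 level, given above, lay below that of each P2 tissue, with no overlap of the counting intervals. In that comparison 2.03% of all genes were 2-fold higher at E19, 1.80% lower and 3.83% either. Ighm, the heavy chain constant gene, stood at 886 (857 to 916), 916 (884 to 949), 896 (836 to 959) and 899 (846 to 954), with overlapping intervals in all 4 libraries. Cd79a, a signalling chain of the receptor and part of the rule, stood at 838, 698, 658 and 618. Cd79b, its partner, stood at 683 (657 to 709), 619 (592 to 646), 513 (468 to 561) and 387 (353 to 424). Blnk, the adaptor below the receptor, stood at 423 (403 to 444), 539 (514 to 564), 369 (331 to 411) and 250 (222 to 280). Blk, a Src-family kinase, was the 1 gene of 14 in the receptor list past 2-fold lower at E19: it stood at 45.9 (39.5 to 53.1), 60 (51.9 to 69.0), 81.8 (64.5 to 102) and 12.6 (7.03 to 20.7), a log2 ratio of -2.06 (-3.00 to -1.41). The median of the receptor list was -0.23.

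Dntt was found in P2 members and in no E19 member. It stood at 82.4 CPM (73.7 to 91.9) in bone marrow, 130 (118 to 143) in liver and 87.2 (69.3 to 108) in spleen, from 325, 429 and 81 UMIs in 177, 168 and 37 members. At E19 there were 0 Dntt UMIs in 128 members and 1193489 UMIs. Against a floor of 3 counts in that library, the P2 level was at least 32.8-fold higher in bone marrow, at least 51.7-fold higher in liver and at least 34.7-fold higher in spleen. Among P2 members of at least 5000 UMIs, thinned to 5000, 19.9% (15.9 to 24.5), 24.3% (19.2 to 30.0) and 21.2% (12.9 to 31.8) held a Dntt UMI. At E19 it was 0 of 90, an exact upper limit of 4.02%. Among all members before thinning the shares were 27.5%, 32.9%, 25.2% and 0%. In the Mpo cells, whose median depths are given above, the thinned share was 1.17%, 0.617%, 0.369% and 0%. The UMIs were spread over the members: the 5 members with most held 11.4% of the bone marrow UMIs, 11.9% of the liver UMIs and 38.3% of the spleen UMIs. Without the members marked by Scrublet the levels were 88.4, 137, 103 and 0.

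Elsewhere in the E19 library Dntt was low too. The other kept cells of E19 held it at 0.200 CPM, against 14.3, 8.73 and 5.57 in the other kept cells of P2 bone marrow, liver and spleen. Cells with Flt3 and Dntt but none of the B genes, the lymphoid-primed pattern that precedes the B lineage, numbered 13 in bone marrow, 2 in liver, 11 in spleen and 3 at E19.

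The other recombination genes did not share this pattern. Rag1, a subunit of the recombinase, stood at 146 (134 to 158), 143 (131 to 157), 120 (98.3 to 144) and 140 (120 to 163), with overlapping intervals in every library. Rag2, the other subunit, stood at 56.6 (49.4 to 64.5), 75.5 (66.4 to 85.4), 53.8 (40.0 to 71.0) and 57.8 (45.0 to 73.2). Of 12 recombination genes, 9 passed the filter at E19 against P2, and Dntt was the 1 past 2-fold in either direction; the median of the 9 was -0.01. Il7r, the receptor for interleukin 7, stood at 277 (261 to 294), 368 (347 to 389), 327 (292 to 366) and 209 (184 to 236). No gene of the interleukin 7 list passed 2-fold at E19 (5 of 15 passed the filter, median 0.04), and in liver over spleen 1 of 5 did: Socs2, a feedback inhibitor of cytokine signalling, at 60 (51.9 to 69.0) in liver and 14 (7.45 to 23.9) in spleen.

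H19 and Hmga2, of the fetal list, were past 2-fold higher in E19 members. H19, a long non-coding RNA of fetal growth, stood at 16.0 (12.3 to 20.4) in bone marrow, 9.09 (6.13 to 13.0) in liver, 5.38 (1.75 to 12.6) in spleen and 96.4 (79.6 to 116) at E19, a log2 ratio of 3.00 (2.60 to 3.41) over P2. Hmga2, a chromatin protein of fetal stem cells, stood at 115 (105 to 126), 76.4 (67.2 to 86.4), 76.5 (59.7 to 96.4) and 275 (246 to 306), a log2 ratio of 1.53 (1.34 to 1.72). Lin28b, which holds back let-7 microRNAs, stood at 39.1 (33.1 to 45.7), 60.3 (52.2 to 69.3), 45.2 (32.6 to 61.1) and 94.7 (78.0 to 114), a log2 ratio of 0.98 (0.66 to 1.28) that missed 2-fold. Igf2bp1, an RNA-binding protein, had 0, 0 and 1 UMIs at P2 and 36 at E19. Its relative Igf2bp3 stood at 203 (189 to 217), 214 (199 to 231), 199 (172 to 230) and 236 (210 to 266). Of the 10 fetal genes, 5 passed the filter, 2 of them were past 2-fold higher and none lower, with a median of 0.98 beside 0.00.

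The fetal genes were also found at E19 in cells that are not members. In the other kept cells, H19 stood at 3.31, 5.32, 1.36 and 61.9 in the same order of libraries, and Hmga2 at 277, 97.0, 166 and 649. Without the members marked by Scrublet the E19 level of H19 was 100 and that of Hmga2 was 210. H19 was held by 49 E19 members, and Hmga2 by 77.

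MHC class I genes were lower in E19 members. H2-K1, a classical presenting molecule, stood at 231 (216 to 246), 348 (329 to 369), 263 (231 to 298) and 88.0 (72.0 to 107). H2-D1, its relative, stood at 249 (233 to 265), 396 (375 to 418), 283 (250 to 320) and 75.4 (60.6 to 92.7). Psmb8, an immunoproteasome subunit, stood at 327 (309 to 345), 309 (290 to 328), 250 (219 to 284) and 142 (121 to 165). These 3 were past 2-fold lower at E19 of 5 that passed the filter, with a median of -1.13, and their ratios without the members marked by Scrublet were -2.06, -1.98 and -1.05. In the other kept cells of E19, H2-K1 stood at 161 and H2-D1 at 115, against 232 to 256 and 216 to 279 in those of P2.

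The histone genes were lower at E19 in members and in other cells alike. Of 28 clustered histone genes that passed the filter, 23 were past 2-fold lower in E19 members, with a median of -1.61, and the median of the same genes in the other kept cells was -1.92. The E19 matrix was made with another version of Cell Ranger and in another batch, and the part of either in this difference was not tested. Counting genes past 2-fold against each P2 tissue on its own, 40 genes were higher (1.06%) and 40 lower (1.06%) at E19.

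Most members with many UMIs were called S or G2M. With cells thinned to 5000 UMIs and scored on lists of S and G2M genes, 97.7% (95.5 to 99.0) of 346 bone marrow members, 95.4% (92.0 to 97.6) of 259 liver members, 98.8% (93.2 to 100.0) of 80 spleen members and 96.7% (90.6 to 99.3) of 90 E19 members were called S or G2M. In all kept non-members of that depth, with the cells left out by the condition on Mpo, Klf1 and Mcpt8 included, the share was 91.8%, 81.7%, 88.8% and 54.9%. In the small pre-B and immature set, defined below, it was 89.3% of 28 cells in bone marrow, 89.5% of 171 in liver and 70.9% of 326 in spleen. No E19 cell of that set had this depth. This depth leaves out 298, 252, 67 and 38 members with fewer UMIs.

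The shallower members differed between libraries. At 2500 UMIs, members that held from 2500 to under 5000 UMIs were called S or G2M in 79.0% (73.0 to 84.2) of 219 cells in bone marrow, 44.9% (37.4 to 52.6) of 176 in liver, 98.1% (90.1 to 100.0) of 54 in spleen and 76.7% (57.7 to 90.1) of 30 at E19. Members of 5000 UMIs or more were called so in 97.4%, 94.6%, 100% and 97.8%. Over all members of at least 2500 UMIs, the share was 90.3%, 74.5%, 99.3% and 92.5%, and with no thinning it was 83.2%, 66.5%, 93.9% and 87.5%. Liver thus held the most members called G1, 111 of 435, against 55 of 565 in bone marrow, 1 of 134 in spleen and 9 of 120 at E19.

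**Figure D3:**
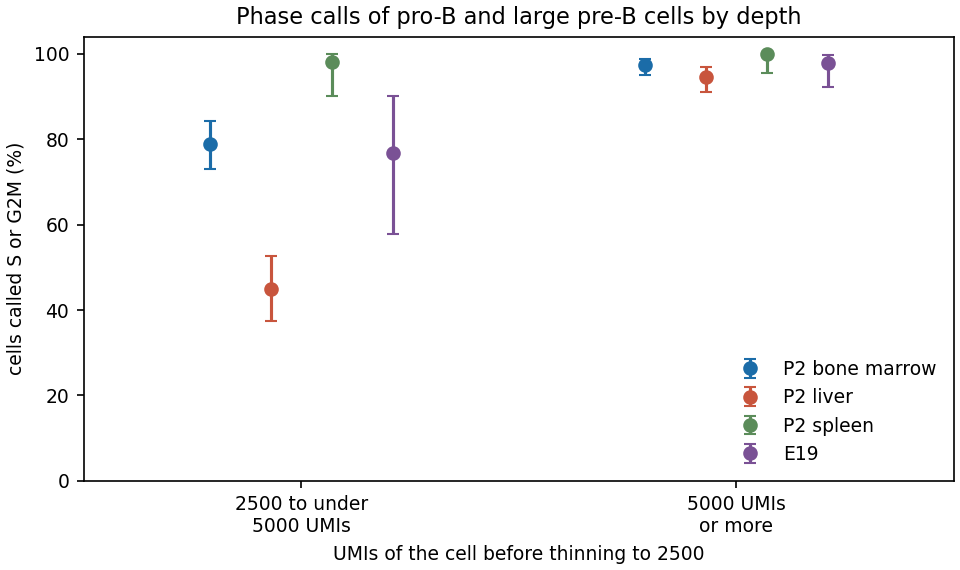
Percent of members called S or G2M (vertical axis) at 2500 UMIs per cell, for members of 2500 to under 5000 UMIs and of 5000 UMIs or more, by library, with exact 95% binomial intervals. The liver point is lowest in the shallower class at 44.9%, and all libraries lie between 94.6% and 100% in the deeper class.

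Several B-lineage genes stood at a higher level in the liver members called G1 than in those called S or G2M. The phase lists chose these cells, so the proliferation genes are no finding between them: Mki67 stood at 26.3 CPM in the G1 class and 1317 in the G2M class. Foxo1 stood at 585 (514 to 663) in the liver G1 class, 260 (226 to 298) in S and 256 (233 to 279) in G2M. Btg2, an antiproliferative gene, stood at 234 (190 to 285), 91.3 (71.6 to 115) and 94.3 (81.0 to 109). Rag1 stood at 279 (231 to 335), 97.6 (77.1 to 122) and 111 (96.6 to 127). Erg, a factor of early B and stem cells, stood at 860 (773 to 953), 335 (296 to 378) and 344 (318 to 371).

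In bone marrow the G1 class held the higher level of the same genes. Foxo1 stood at 343 (268 to 433), 191 (164 to 221) and 260 (241 to 281) in G1, S and G2M, and its G1 and G2M intervals overlapped. Btg2 stood at 227 (167 to 302), 45.1 (32.5 to 61.0) and 84.1 (73.4 to 96.0), and Rag1 at 295 (225 to 379), 102 (82.5 to 125) and 134 (120 to 148). Dntt was at 208 (166 to 256), 114 (91.7 to 140) and 97.9 (84.4 to 113) in liver but at 77.3 (44.2 to 126), 93.4 (74.8 to 115) and 70.0 (60.3 to 80.9) in bone marrow, where the intervals overlapped. Pax5 showed no such step, at 793 (710 to 883), 807 (746 to 872) and 720 (682 to 759) in liver. Cd24a, a surface glycoprotein of dividing precursors, ran the other way, at 270 (222 to 324), 522 (473 to 574) and 481 (450 to 513).

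Markers of other cell types and depth differed with these classes. In liver, Cst3 stood at 2059 CPM in the G1 class, 243 in S and 585 in G2M, Cd74 at 791, 38.8 and 162, and H2-Aa at 313, 7.51 and 83.8. In bone marrow, Cst3 stood at 744, 218 and 331, and Cd74 at 290, 3.22 and 11.04. Their part in the other levels of the G1 class was not tested. The median UMI count was 3220 in the liver G1 class and 7616 in G2M, and 3101 and 6212.5 in bone marrow. The rule asks for a UMI of Vpreb1 and of Igll1, so the higher level of Vpreb1 in the liver G1 class, 3100 against 1023 in G2M, is a description.

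**Figure D4:**
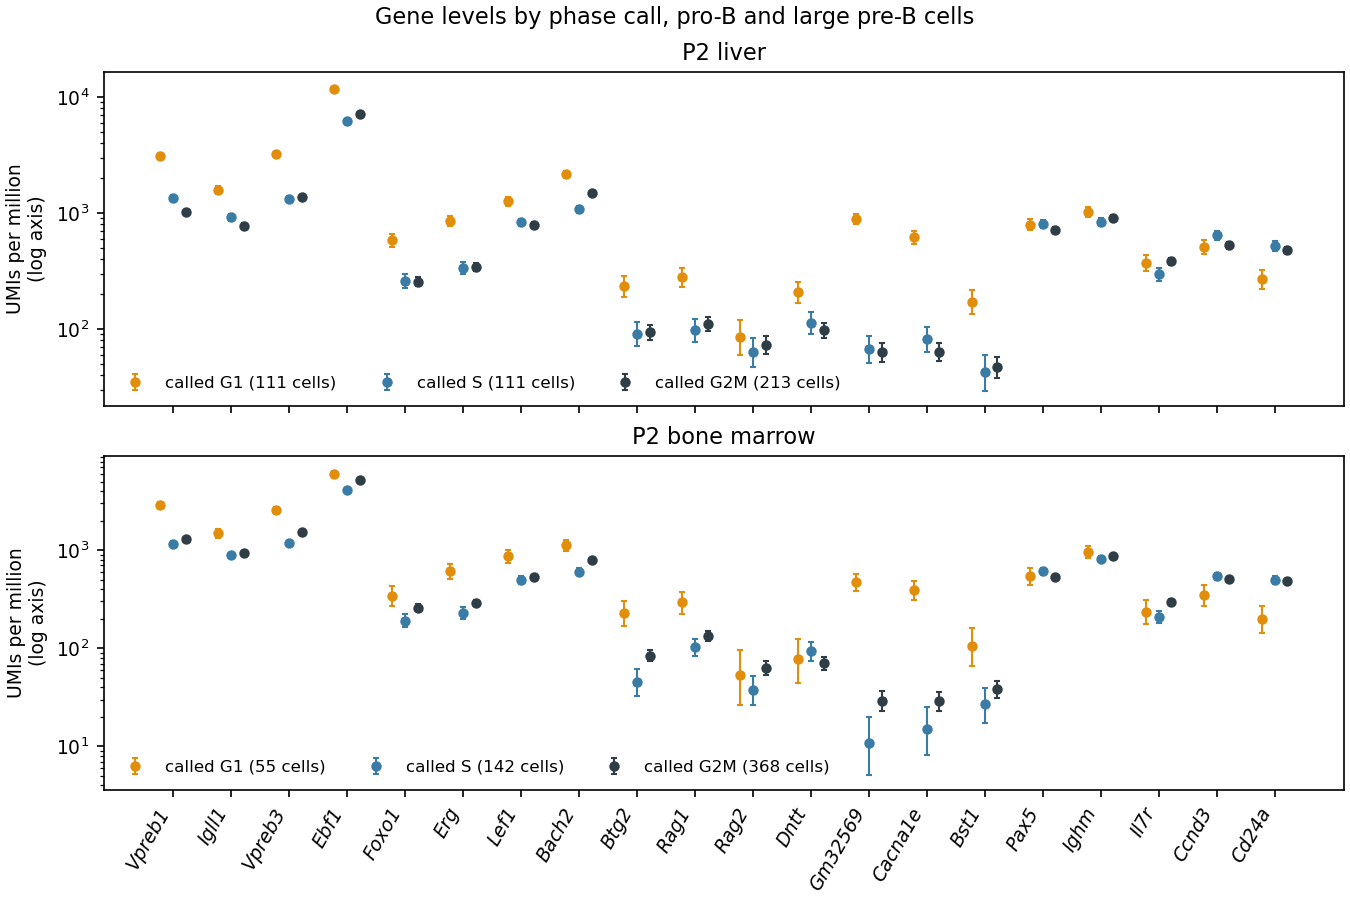
Levels of 20 genes in members called G1, S or G2M at 2500 UMIs, in CPM on a log axis, for P2 liver and P2 bone marrow, with exact 95% Poisson intervals. Gm32569 and Cacna1e show the widest gap between the G1 class and the others in both tissues, while the Pax5 points lie close together.

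Some genes that were high in liver members were also high in the G1 class. Past 2-fold over both bone marrow and spleen were 16 genes (0.423% of 3779), and 1 gene, Angpt1, was lower (0.0265%). Without the members marked by Scrublet, Angpt1 was under 2-fold in both comparisons, at 0.34 for bone marrow over liver and -0.83 for liver over spleen. Among the 16, the ratio of liver over spleen then fell to 0.06 for Cst3 and turned sign for Cd74, H2-Aa and H2-Eb1. Cacna1e, a voltage-gated calcium channel, stood at 66.7 (58.9 to 75.3) in bone marrow, 182 (167 to 197) in liver, 28.0 (18.3 to 41.0) in spleen and 31.8 (22.5 to 43.7) at E19. In liver it was at 619 (546 to 699) in the G1 class and 63.9 (53.1 to 76.3) in G2M. Gm32569, a gene model, stood at 75.6 (67.2 to 84.7), 218 (203 to 235), 28.0 (18.3 to 41.0) and 58.7 (45.7 to 74.1), and at 886 (798 to 981) in the liver G1 class against 63.4 (52.6 to 75.7) in G2M. Bst1, also known as BP-3, was past 2-fold in liver over spleen only, and stood at 43.1 (36.9 to 50.1), 66.4 (57.9 to 75.8), 17.2 (9.85 to 28.0) and 41.1 (30.4 to 54.3), and at 172 (135 to 217) in the liver G1 class against 47.1 (37.9 to 57.9) in G2M. The part of the larger G1 class in the liver levels was not tested.

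Other genes that differed between tissues were held by from a few to many members. Cd69, an early activation and retention receptor, stood at 108 (98.3 to 119) in bone marrow, 82.4 (72.9 to 92.8) in liver, 14 (7.45 to 23.9) in spleen and 124 (105 to 146) at E19. It was held by 236, 136, 13 and 68 members, and spleen alone was low. Pcdh9, a protocadherin, stood at 55.8 (48.7 to 63.7), 72.7 (63.8 to 82.5), 4.31 (1.17 to 11) and 10.1 (5.20 to 17.6), so that spleen and E19 were low. In bone marrow 61 members held it, and 5 of them held 39.1% of its UMIs. Rnase12, a secreted ribonuclease, stood at 124 (114 to 136), 69.4 (60.7 to 79.0), 45.2 (32.6 to 61.1) and 62.0 (48.7 to 77.8), highest in bone marrow. Prkch, a protein kinase C, stood at 39.6 (33.6 to 46.3), 108 (97.5 to 120), 30.2 (20 to 43.6) and 88.0 (72.0 to 107), and its ratio of bone marrow over liver was under 2-fold without the condition (-0.91). Nrgn, a calmodulin-binding protein, stood at 21.1 (16.8 to 26.1), 27.6 (22.2 to 33.9), 73.2 (56.9 to 92.8) and 24.3 (16.3 to 34.9), highest in spleen. Between bone marrow and spleen, 0.399% of 3761 genes were past 2-fold higher, 0.984% lower and 1.38% either. Against both other P2 tissues, bone marrow had 4 genes higher (0.109%), all globins, and 4 lower (0.109%), which were Glcci1, Ifi27l2a, Igkc and Ikzf3. The ratio of Ifi27l2a over spleen was under 2-fold with 3 UMIs of each rule gene (-0.85) and without the condition (-0.99). Spleen had 7 higher (0.191%) and 6 lower (0.164%) by the same count.

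At E19, Bcl2l11, which encodes the pro-death protein Bim, stood at 90.5 (74.2 to 109) against 19.3 (15.2 to 24.1), 25.5 (20.3 to 31.5) and 24.8 (15.7 to 37.2) in bone marrow, liver and spleen, a log2 ratio of 2.02 (1.66 to 2.37). Ifi27l2a, an interferon-inducible gene, was low there, at 15.1 (8.94 to 23.8) against 53.8 (46.8 to 61.5), 125 (113 to 138) and 108 (87.6 to 131). Kit, which encodes the gated receptor, stood at 127 (107 to 148) at E19 and 49.7 (43.0 to 57.2), 72.4 (63.5 to 82.2) and 73.2 (56.9 to 92.8) at P2. Its E19 level was 114 without the members marked by Scrublet, and its log2 ratio then went from 1.05 to 0.97. The other gate genes were low in members: Procr, which encodes Epcr, had 6, 0, 2 and 9 UMIs in all, and Ly6a, which encodes Sca-1, 43, 18, 6 and 6. In the other kept cells Procr stood at 7.35, 1.63, 6.07 and 34.6 CPM.

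Several of the largest ratios rested on a few members. Cd74, the class II invariant chain, stood at 24.6 (19.9 to 30.0) in bone marrow, 204 (189 to 220) in liver, 47.4 (34.4 to 63.6) in spleen and 2.51 (0.518 to 7.35) at E19. In liver 5 of the 511 members held 63.5% of its 674 UMIs, and without the members marked by Scrublet its level was 11.9 in bone marrow, 13.0 in liver, 19.0 in spleen and 2.14 at E19. H2-Aa, a class II chain, had a liver level of 90.3 (80.3 to 101), and 5.81 without the marked members. The log2 ratio of liver over spleen then turned from 2.08 to -0.61 for Cd74 and from 3.39 to -0.14 for H2-Aa. Iglc1, a light chain constant gene, stood at 98.0 (78.9 to 120) in spleen, where 1 member held 82 of its 91 UMIs, and at 2.71 without the marked members. Mt1, a metallothionein, went from 61.4 to 13.5 in spleen.

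Globin and stem cell genes were also held by few members. Hbb-bs, a beta globin, stood at 311 (294 to 329), 81.5 (72.1 to 91.9), 32.3 (21.8 to 46.1) and 335 (303 to 370), and 5 members held 94.2% of its bone marrow UMIs while 1 held 361 of the 400 at E19. Without the marked members it stood at 118, 9.92, 33.9 and 39.5. Mecom, a stem cell factor, stood at 37.8 (32.0 to 44.4), 5.15 (3.00 to 8.25), 14 (7.45 to 23.9) and 228 (202 to 257), held by 20 of 128 members at E19. Without the marked members it stood at 1.98, 2.05, 2.71 and 29.9, and the other kept cells held 215, 49.2, 151 and 1204. Hlf, another stem cell factor, went from 70.4 to 18.2 at E19 in the same way.

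**Figure D5:**
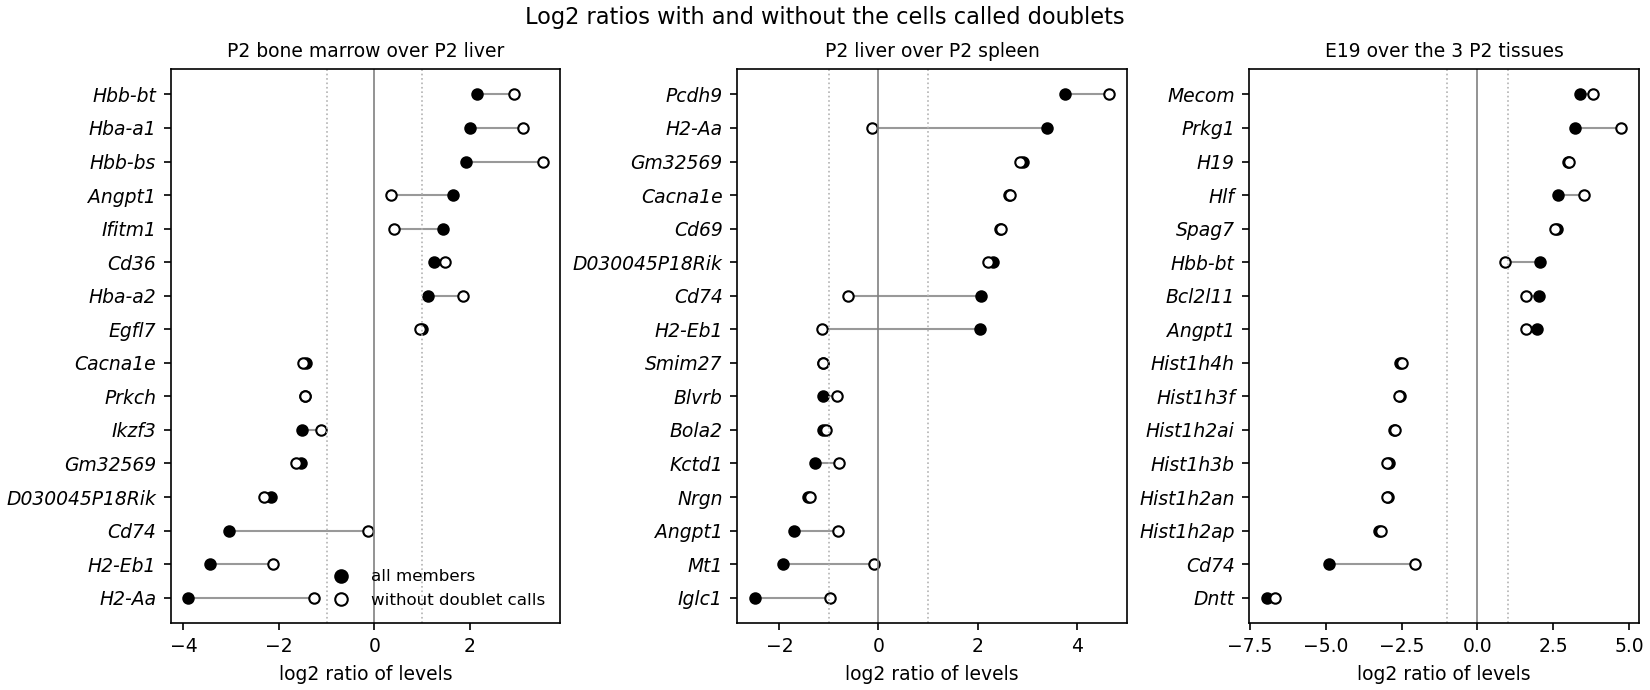
Log2 ratios of the 8 genes with the largest ratio in each direction for 3 comparisons, over all members (filled circles) and without the members that Scrublet marked (open circles); dotted lines mark 2-fold. Class II and light chain genes move toward 0 or past it, while Dntt, H19, Cacna1e, Gm32569, Cd69 and the histone genes hardly move.

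The marker lists of other cell types were summed over the members of each library. The stem cell list of 12 genes summed to 235, 187, 186 and 630 CPM in members and to 849, 317, 663 and 3189 in the other kept cells, with 12, 10, 12 and 12 genes seen in members and Procr and Tek at 0 in liver. The erythroid list of 12 summed to 757, 331, 283 and 1142 against 2389, 2219, 3618 and 3572, with Klf1 at 0 by the rule. The monocyte, macrophage and dendritic list of 12 summed to 359, 759, 251 and 203 against 673, 2841, 628 and 309, with 8, 12, 4 and 5 genes seen and Siglech and Xcr1 at 0 outside liver. The myeloid list of 11 summed to 80.1, 135, 42.0 and 26.8 against 6522, 10666, 2379 and 781, with Mpo at 0 by the rule and Ltf at 0 throughout. The list of 14 for T, NK and innate lymphoid cells summed to 65.2, 118, 37.7 and 60.3 against 207, 751, 260 and 164, with 11, 12, 11 and 5 genes seen, and in liver 1 member held 83 of 101 Gzma UMIs. The hepatocyte list of 8 summed to 2.03, 19.1, 1.08 and 12.6 against 6.25, 81.8, 3.52 and 16.9, with 2, 8, 1 and 6 genes seen and Alb at 0 in bone marrow and spleen. The stromal and endothelial list of 8 summed to 110, 168, 116 and 150 against 113, 70.6, 82.7 and 79.5. The sum was higher in members than in the other kept cells of liver, spleen and E19. It had 3, 3, 3 and 4 genes seen, with Col3a1 at 0 throughout and only Pecam1 and Kdr seen in each library. In each comparison 1 of the 8 genes passed the size filter, so the sum does not stand for the list. The part of these cell types in the levels above, beyond the values given without the marked members, was not tested.

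Light chain and later B genes set the members beside the next stage. Cells with Cd79a and at least 3 Igkc UMIs but no Vpreb1 or Igll1, the small pre-B and immature pattern, numbered 114 in bone marrow, 604 in liver, 1422 in spleen and 1 at E19. Igkc, the kappa constant gene, stood in members at 32.7 (27.3 to 38.9), 89.1 (79.2 to 99.9), 82.9 (65.4 to 104) and 24.3 (16.3 to 34.9). At least 3 Igkc UMIs were held by 13, 23, 11 and 2 members (2.02%, 4.50%, 7.48% and 1.56%). Without the members marked by Scrublet the Igkc level was 31.5, 51.6, 56.9 and 11.7, and its ratios of bone marrow over liver and over spleen were then under 2-fold, at -0.71 and -0.88. The small pre-B and immature cells used Igkc in their own rule, so the genes outside both rules serve for the comparison.

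Pax5 was alike in both sets at P2, while Lef1, Erg and Rag1 were high in members. In the small pre-B and immature set of bone marrow, liver and spleen, Pax5 stood at 591, 836 and 611. In members it stood at 565, 754 and 544. Lef1 stood at 73.9, 127 and 105 beside 568, 911 and 546. Erg stood at 2.05, 3.64 and 13.9 beside 311, 439 and 227. Rag1 stood at 28.7, 34.0 and 0.335 beside 146, 143 and 120, and Il7r at 216, 150 and 14.1 beside 277, 368 and 327. Ms4a1, which encodes CD20, stood at 912, 925 and 1364 in the small pre-B and immature set. Ly6d, a surface marker gained by B-committed cells, stood at 1179, 1662 and 1378 beside 156, 135 and 81.8. The gap in Lef1, Erg and Ly6d had the same direction in all 3 tissues, which may share animals and so may not be independent.

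Beyond the rule's own genes, the members' leading genes were ranked by their lowest ratio over the libraries to the other kept cells, as a description. Vpreb2 came first of the genes outside the rule. Gfra2 and Gfra1, receptors for the GDNF family and 4th and 10th in that order, stood at 159, 172, 120 and 133 and at 318, 485, 247 and 375 CPM. The other kept cells of the same libraries held at most 2.71 and 20.9. Tnfrsf19, a receptor of the TNF family, stood at 61.9, 92.4, 66.8 and 83.0. Cplx2, complexin 2, stood at 212, 285, 167 and 181, and Bfsp2, a filament protein, at 741, 500, 611 and 518. All 20 leading genes, which include Rag1, Rag2 and Lef1, kept at least 12.6-fold over the other kept cells in each of the 4 libraries. This ratio chose them.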

How the data were processed

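Single-cell RNA was measured with 10x 3′ libraries. The deposited matrices hold raw counts (UMIs) per gene and barcode, made by the authors with Cell Ranger, 7.0.0 for the P2 tissues and 7.1.0 for E19 per the file headers, and with mm10 per the submitters' processing notes. Members had 3942910, 3300078, 928654 and 1193489 UMIs in bone marrow, liver, spleen and E19, so a floor of 3 counts was 0.761, 0.909, 3.23 and 2.51 CPM. Python 3.11.15, scanpy 1.11.5 and scipy 1.17.1 were used. Doublets were scored per library with scanpy's Scrublet at 0.8% per 1000 barcodes and kept. Shares carry exact Clopper-Pearson intervals and levels exact Poisson intervals at 95%, for counting error only. Ratios are log2 of levels with 1 UMI added. Phase was called with scanpy's cell cycle scoring after thinning without replacement. Background cells held at least 5 Mpo or at least 3 Klf1 UMIs with no Vpreb1 or Igll1, a stricter set than the 1 UMI first planned.

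Named genes were the markers and gate genes, up to 6 of the highest genes and every gene past 2-fold in each gene list, the 8 largest ratios in each direction of each comparison, and the 20 leading genes. Btg2, Cd24a and genes described across tissues outside this rule were chosen after their values were seen. The members and the lists were chosen with earlier results of these data known. The ratio calculation was tested on simulated data. Alternatives covered thinning, the size filter, centring, the members' rule, mitochondrial content and doublet calls. The hashtag reads of the Tppp3CreER tubes were not used here. 1 gene is not reported here.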

Additional observations from a re-analysis of the deposited data

Results flagged for a closer look

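The tubes of pooled bone marrow and spleen from Tppp3CreER LSLTdTomato pups, which no comparison used, also held members. Tube 1 held 1 member of 6033 UMIs, and 8 of them were Dntt UMIs. Tube 2 held 13 members, 0.526% of its kept cells, with a median of 31862 UMIs. They held 4 Dntt UMIs in all, at 10.7 CPM (2.91 to 27.4). This lay below the 82.4, 130 and 87.2 CPM of members in P2 bone marrow, liver and spleen. The 1 member of tube 1 lay above them, at 1326 CPM (572 to 2613). Each tube value stands here because it lies above 0 in data outside the comparisons, and none has a replicate.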

How the results depend on the processing

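With 1 library per group, leaving out a replicate leaves no group. No paired analysis was possible because each group had 1 library and no test was made. The spleen and E19 values rest on the fewest members, 147 and 128, against 644 in bone marrow and 511 in liver. The order of bone marrow and liver over spleen and E19 in member share held under every alternative run. Shares in bone marrow, liver and spleen were 7.03%, 6.76% and 1.27% at 5000 UMIs, where cells under that depth were left out. At 2000 UMIs they were 8.78%, 8.08% and 1.12% (E19 0.858%). With 3 UMIs of each gene they were 7.97%, 7.40% and 0.863%. Without the Mpo, Klf1 and Mcpt8 condition they were 12.8%, 15.2% and 2.02%. The liver share was 10.6% with a mitochondrial limit of 5%. The share called S or G2M was 90.3% in bone marrow and 74.5% in liver at 2500 UMIs, 83.2%, 66.5% and 87.5% in bone marrow, liver and E19 with no thinning, and 99.4%, 100% and 100% in bone marrow, spleen and E19 without Scrublet calls. The Dntt share was 27.5% in bone marrow and 32.9% in liver with no thinning and 12.7% in spleen at 2500 UMIs. With a filter of 20 UMIs and 20 CPM, genes higher and lower were 17 and 94 (bone marrow against liver), 66 and 72 (bone marrow against spleen), 210 and 31 (liver against spleen) and 203 and 153 (E19 against P2). With the mean over members, 4 and 50 were higher and lower in bone marrow than in liver, 25 higher in bone marrow than in spleen, and 174 and 23 higher and lower in liver than in spleen. Genes higher in bone marrow than in liver were 5 with 3 UMIs of each gene and 2 without Scrublet calls. Genes lower in liver than in spleen were 4 with 200 UMIs, 20 after median centring, 7 without Scrublet calls and 5 without the condition. Chosen after seeing the data, leaving out globin, histone, ribosomal and mitochondrial genes gave 44 lower in bone marrow than in liver and 22 lower in liver than in spleen, and E19 against each P2 tissue gave 40 higher and 40 lower. Of 557 log2 ratios of named genes under alternatives, 72 fell under 2-fold and 17 turned sign. Without Scrublet calls these were Cst3 (0.16, bone marrow against liver), Iglc1 (0.48) and Mt1 (0.69, bone marrow against spleen), H2-Ab1 (-0.34), Hbb-bs (-1.78), H2-Eb1 (-1.14), Cd74 (-0.61) and H2-Aa (-0.14, liver against spleen) and Hba-a1 (-0.14, E19 against P2). Without the condition they were Hba-a2 (-0.29), Hbb-bs (-0.25), Hba-a1 (-0.79) and Hbb-bt (-0.34, bone marrow against liver), Hba-a1 (-0.47, bone marrow against spleen) and Mt1 (0.11, liver against spleen). With 3 UMIs of each gene they were Hba-a1 (-1.39) and Hba-a2 (-1.0, E19 against P2). The cause was not tested.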
